A study of Mus musculus with 6 samples.

Results

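Small leucine-rich proteoglycans (SLRPs) are secreted matrix proteins whose leucine-rich repeat core binds collagen and, in most members, carries chondroitin, dermatan or keratan sulfate chains. In tendon, cartilage and bone they limit and order the lateral growth of collagen fibrils, and several of them also bind growth factors of the TGF-β family. Soluble decorin and biglycan are known as ligands of Toll-like receptors. The 10 SLRP genes described here were chosen by symbol, and all 10 were among the 32285 genes of the count tables: Dcn (decorin), Bgn (biglycan), Lum (lumican), Fmod (fibromodulin), Ogn (osteoglycin), Aspn (asporin), Prelp (prolargin), Kera (keratocan), Omd (osteomodulin) and Epyc (epiphycan).

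Enthesis, the site where the rotator cuff tendon inserts into bone, was taken 7 days after injury and repair from C57BL/6 wild-type mice (3 libraries) and from mice with a constitutive loss of Nlrp3, the sensor of an inflammasome (Nlrp3-/-, 3 libraries). The mice were 12 to 14 weeks old, tissue of several animals was pooled, and the 6 libraries hold no uninjured tissue, so each carries the injury and the repair. All libraries were 3′ single-cell RNA libraries with unique molecular identifiers (UMIs), and the submitters named the Nlrp3 knockout in the titles of all 3 knockout libraries while the genotype field of 2 of them named another Nlrp gene. The authors give n = 3 per genotype and also state that entheses were pooled. Whether each library holds separate animals is not said, so p-values measure the spread between these libraries.

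The libraries held 97042713 to 134901999 UMIs, and 79684 cells passed the filters. After clusters drawn mostly from 1 library were set aside, 68940 cells were kept, and Nlrp3-/- replicate 1 fell from 19888 to 9772 cells. Before this step, median depth ran from 1876 UMIs per cell in Nlrp3-/- replicate 1 to 6701 in Nlrp3-/- replicate 3, and pairs of libraries shared 25 to 87 cell barcodes. Among the cells kept, the medians of these replicates were 3695 and 6736.5 UMIs. Nlrp3 had 0 UMIs in the Nlrp3-/- libraries and 95.9 to 164 counts per 1000000 UMIs (CPM) in the wild-type libraries. Xist stood at 783 to 923 CPM in the Nlrp3-/- libraries and at most 0.122 CPM in the wild-type libraries, while the Y-linked Ddx3y and Eif2s3y had 0 UMIs in every Nlrp3-/- library, so genotype and sex cannot be told apart in any comparison below. Of the mesenchymal barcodes, 6242 lay in clusters drawn mostly from 1 library and were set aside, 6001 of them from Nlrp3-/- replicate 1. Mesenchymal-like cells, named from collagen and other stromal markers, numbered 12782, with 1272 to 3245 per library.

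Apart from Bgn, the members lie in 3 short stretches of the genome (GRCm38, GENCODE annotation), each member being a protein-coding gene. Dcn, Lum, Kera and Epyc follow each other on the plus strand of chromosome 10 between 97479609 and 97682454, a span of 203 kb. Aspn, Omd and Ogn follow Ecm2, a further leucine-rich gene, on the plus strand of chromosome 13 within 120 kb. Prelp (minus strand) and Fmod (plus strand) lie beside Optc on chromosome 1 within 151 kb. Bgn lies alone on the X chromosome at 73483602 to 73495933. Nlrp3 itself is on chromosome 11.

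The sequences before the starts of 5 members are printed so that neighbours can be read side by side. RefSeq (GRCm38.p6) gave a promoter for 8 of the 10 members; Dcn and Lum were the members without one. The 250 bases before the start are given for the chromosome 13 neighbours Aspn (chr13:49544193-49544442), Omd (chr13:49582212-49582461) and Ogn (chr13:49607765-49608014), and for Epyc (chr10:97643818-97644067) and Fmod (chr1:134037004-134037253), which like Omd were highest in chondrocyte-like cells. All 5 are on the plus strand and written 5′ to 3′, with capitals marking the E-box letters CANNTG, which basic helix-loop-helix factors can bind, and the TATA letters TATAAA on either strand.
Aspn: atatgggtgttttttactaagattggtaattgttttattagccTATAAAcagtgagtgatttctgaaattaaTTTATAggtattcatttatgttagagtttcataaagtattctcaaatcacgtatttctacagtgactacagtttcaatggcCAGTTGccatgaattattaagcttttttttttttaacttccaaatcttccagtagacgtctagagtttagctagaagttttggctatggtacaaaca
Omd: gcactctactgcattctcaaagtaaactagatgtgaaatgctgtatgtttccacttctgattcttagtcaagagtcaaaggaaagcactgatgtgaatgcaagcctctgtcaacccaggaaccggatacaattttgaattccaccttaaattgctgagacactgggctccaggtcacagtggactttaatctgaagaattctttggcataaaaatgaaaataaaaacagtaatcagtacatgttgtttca
Ogn: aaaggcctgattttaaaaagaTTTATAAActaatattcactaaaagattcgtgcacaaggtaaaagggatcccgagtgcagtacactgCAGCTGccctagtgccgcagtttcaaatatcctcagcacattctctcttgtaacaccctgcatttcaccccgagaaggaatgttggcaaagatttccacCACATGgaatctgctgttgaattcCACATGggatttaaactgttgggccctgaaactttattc
Epyc: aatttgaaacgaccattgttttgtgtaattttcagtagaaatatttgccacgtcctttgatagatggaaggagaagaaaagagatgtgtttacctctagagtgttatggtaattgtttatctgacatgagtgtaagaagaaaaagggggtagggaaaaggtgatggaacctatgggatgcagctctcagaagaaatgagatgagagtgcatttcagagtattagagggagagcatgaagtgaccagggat
Fmod: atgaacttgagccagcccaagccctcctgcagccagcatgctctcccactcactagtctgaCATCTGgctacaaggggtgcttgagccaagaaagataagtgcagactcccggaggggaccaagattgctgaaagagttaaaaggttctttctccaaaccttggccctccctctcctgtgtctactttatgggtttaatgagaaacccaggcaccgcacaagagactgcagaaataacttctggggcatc
Aspn and Ogn each held 2 TATAAA matches, counting both strands and overlapping matches separately, and those in Ogn overlapped. None of the other 6 members with a sequence had a match, beside 12.4% of 32851 promoters of the same length. CANNTG occurred 3 times in Ogn, and 1 time each in Aspn, Fmod and Bgn, with 66.2% of all promoters holding it. ACAAAG or ACAATG, the core letters of SOX binding, occurred 1 time each in Epyc and Kera and in 25.2% of all promoters. A match is a string of letters and no measured binding.

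The members were expressed by mesenchymal-like cells and together made up 0.716% to 1.22% of the UMIs of these cells in a library. In neutrophil-like cells, which should lack these matrix genes, their sum was 49.3 to 147 CPM, or 0.659% to 1.25% of the mesenchymal level of the same library. UMIs from barcodes of at most 100 UMIs, which hold mostly free RNA, carried the members at 1649 to 4155 CPM. The part of free RNA in these levels was not tested, and levels of this size outside mesenchymal-like cells were taken as background. Endothelial-like cells stood above it for Bgn, with 226 ± 49.1 CPM (SD, n = 6 libraries) against 33.9 ± 11.6 CPM in neutrophil-like cells, and for Prelp, with 8.41 ± 3.14 against 1.18 ± 0.632 CPM.

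Shares of cells gave the same picture at matched depth. Mesenchymal-like cells had a median of 8922.5 to 16752 UMIs in a library and neutrophil-like cells of 1364 to 3526, so each cell was also thinned to 2000 UMIs, and shallower cells were left out, which kept 1259 to 3232 mesenchymal-like and 731 to 2190 neutrophil-like cells per library. After thinning, at least 1 Bgn UMI was found in 98.0% to 98.8% of mesenchymal-like cells and 2.87% to 9.23% of neutrophil-like cells, and without thinning in 98.5% to 99.8% and 4.92% to 15.7%. Dcn was found in 70.6% to 85.9% of thinned mesenchymal-like cells and 1.64% to 4.79% of thinned neutrophil-like cells. For each of the 10 members the share was higher in mesenchymal-like cells in 6 of 6 libraries, with and without thinning. Epyc had the lowest share, 0.155% to 3.26% of thinned mesenchymal-like cells and 0% of thinned neutrophil-like cells.

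Mesenchymal-like cells were divided into clusters without use of the 10 members and named from marker lists. Tenocyte-like cells carried Tnmd at 860 CPM against 99 CPM in the other mesenchymal-like cells, and chondrocyte-like cells Col2a1 at 25773 against 35.0 CPM. Prg4 marked synovial lining-like cells (6732 against 758 CPM), Pi16 universal fibroblast progenitor-like cells (206 against 3.52 CPM), Rgs5 pericyte or smooth muscle-like cells (6902 against 8.58 CPM) and Cxcl5 inflammatory fibroblast-like cells (1155 against 266 CPM). Among the markers of these lists, Il1rl1 in inflammatory fibroblast-like cells (42.1 against 45.7 CPM), Rspo2 in synovial lining-like cells (9.59 against 10.4 CPM) and Htra4 in tenocyte-like cells (3.48 against 3.99 CPM) were not higher. Of the 12782 cells, 5016 lay in clusters that met no name, and these included a cluster of 655 cells led by neutrophil genes and another of 129 cells led by B cell genes. The unnamed cluster 4 was led by Aqp5, Mfap4 and Mest, cluster 2 by Il17a, Ly6h and Eln, cluster 13 by Chodl, Tnfsf15 and Pappa2, and cluster 1 by Tubb3, Actg2 and Cnn1. Levels below are UMI counts of the 3′ ends of transcripts scaled to the summed UMIs of the cells of a group, which do not scale with gene length. They are a description across cell groups with no test, since the groups come from the same cells, and libraries with under 20 cells of a group were left out.

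**Figure D1:**
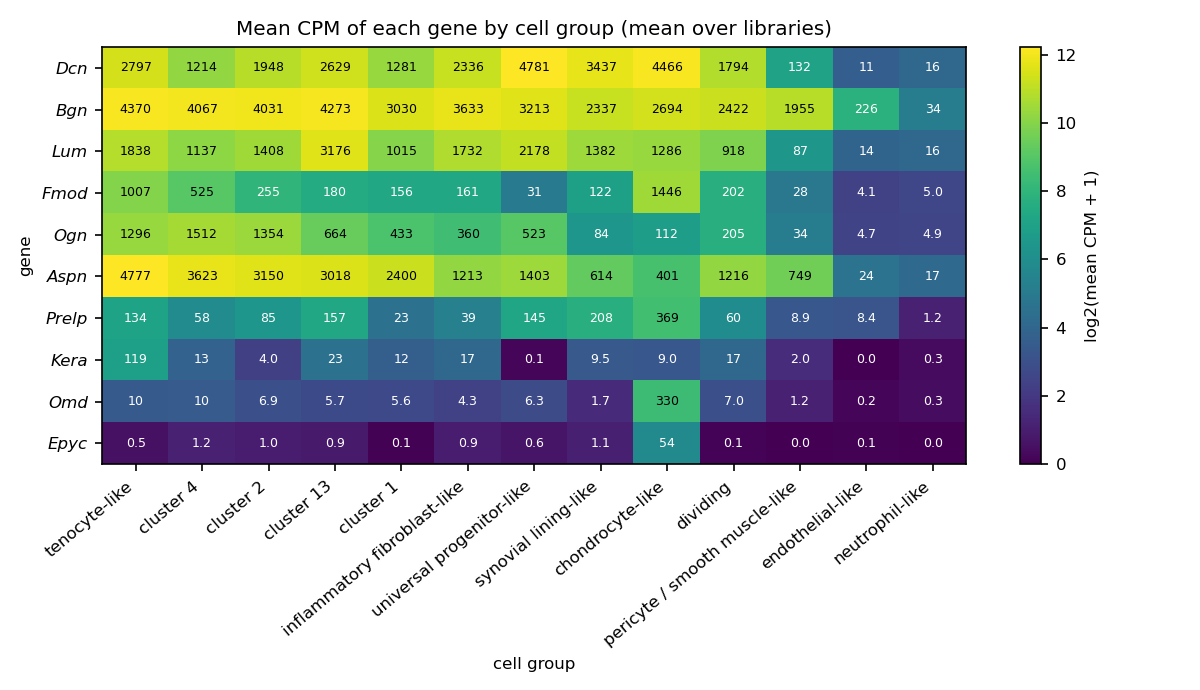
Mean CPM of the 10 SLRP genes (rows) in 11 groups of mesenchymal-like cells and in endothelial-like and neutrophil-like cells (columns), averaged over the libraries with at least 20 cells of the group; the colour shows log2(mean CPM + 1) and the numbers the mean CPM. Bgn is at 1955 CPM or more in every mesenchymal-like group, while Omd and Epyc stand out in chondrocyte-like cells and Kera in tenocyte-like cells.

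Bgn, a small proteoglycan of bone, cartilage and tendon that usually carries a pair of glycosaminoglycan chains, was the most even member. It ranged over the 11 mesenchymal groups from 1955 ± 212 CPM in pericyte or smooth muscle-like cells to 4370 ± 582 CPM in tenocyte-like cells (n = 6), a 2.24-fold span. Its highest subtype became inflammatory fibroblast-like cells when the members were kept in the clustering and when doublets were kept. Its mean exceeded that of the next group by more than the SD for only 1 of the 10 neighbouring pairs in the order, namely synovial lining-like over pericyte or smooth muscle-like cells. The other members spanned 11.9-fold (Aspn) or more.

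Dcn, the closest relative of Bgn and a regulator of collagen fibril diameter, was highest in universal fibroblast progenitor-like cells, with 4781 ± 1164 CPM (n = 6), and lowest in pericyte or smooth muscle-like cells, with 132 ± 91.7 CPM, a 36.2-fold span whose direction was the same in 6 of 6 libraries. Chondrocyte-like cells came next with 4466 ± 4896 CPM (n = 5), and they were the highest subtype instead with doublets kept and without any one of wild-type replicates 1 and 3 and Nlrp3-/- replicates 2 and 3. The 2 chondrocyte-like clusters, 10 and 17, were unlike and unevenly spread over the libraries. Cluster 10 had 56, 0 and 45 cells in wild type and 27 and 494 in Nlrp3-/- replicates 1 and 2. Cluster 17 had 6, 22 and 13 cells in wild type and 30 and 56 in these Nlrp3-/- replicates. The chondrocyte-like cells of wild-type replicate 2 were thus all of cluster 17, and the mean covers different mixtures of the clusters. In the chondrocyte-like cluster 17, led by Msmp, Chad and Cytl1, Dcn was 12840 CPM in wild-type replicate 2, 8647 in Nlrp3-/- replicate 1 and 20348 in Nlrp3-/- replicate 2. In cluster 10, led by Col2a1, Col10a1 and Ihh, it was 980 to 1717 CPM in 4 libraries. The ranges of the 2 clusters did not overlap. Synovial lining-like cells followed at 3437 ± 1353 CPM and tenocyte-like cells at 2797 ± 772 CPM, and within the order only the step from cluster 4 to pericyte or smooth muscle-like cells exceeded the SD. Outside the order, 104 mesenchymal-like barcodes of Nlrp3-/- replicate 2 were set aside, with a median of 5975.5 UMIs. They held Dcn at 8809 CPM and Prelp at 768 CPM, above the means of all 11 groups, but Dcn was below its level in cluster 17 of that library.

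Lum, a keratan sulfate proteoglycan of the same fibril-regulating family, had its highest means in cluster 13 with 3176 ± 965 CPM (n = 3) and in universal fibroblast progenitor-like cells with 2178 ± 617 CPM (n = 6). It was lowest in pericyte or smooth muscle-like cells with 87.0 ± 95.2 CPM. The cluster 13 mean covers only wild-type replicate 3 and Nlrp3-/- replicates 2 and 3. Cluster 13 lay above universal fibroblast progenitor-like cells in 2 of these 3 libraries, with overlapping ranges. Wild-type replicates 1 and 2, which are not in its mean, had the lowest Lum in the summed mesenchymal-like cells. Prelp, which binds collagen and heparan sulfate at basement membranes and in cartilage, was highest in chondrocyte-like cells with 369 ± 241 CPM (n = 5) and synovial lining-like cells with 208 ± 78.3 CPM (n = 6). Within the chondrocyte-like cells it was 883 ± 390 CPM (n = 3) in cluster 17 and 194 ± 41.0 CPM (n = 4) in cluster 10. The order of Prelp had only 1 step beyond the SD.

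Fmod, which shares collagen sites with Lum, was high in chondrocyte-like cells (1446 ± 174 CPM, n = 5) and in tenocyte-like cells (1007 ± 472 CPM, n = 6), which did not differ beyond their spread. In universal fibroblast progenitor-like cells it was 30.6 ± 24.5 CPM, so that the group with the highest Dcn was among the lowest for Fmod. Kera, a keratan sulfate proteoglycan best known from the cornea, was highest in tenocyte-like cells in a step beyond the SD. Its tenocyte-like levels were 20.4, 135 and 109 CPM in the wild-type libraries and 68.0, 219 and 163 CPM in the Nlrp3-/- libraries. The next group, cluster 13, had 22.9 ± 6.85 CPM (n = 3), and universal fibroblast progenitor-like cells had a single Kera UMI in all 6 libraries. In the chondrocyte-like cluster 17 Kera was at 0 CPM in 2 libraries and at 605 CPM in Nlrp3-/- replicate 2.

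Aspn, an SLRP with an aspartate-rich start that binds collagen and TGF-β, was highest in tenocyte-like cells with 4777 ± 486 CPM (n = 6), higher than in cluster 4 in 6 of 6 libraries. Clusters 4, 2 and 13 followed at 3623 ± 907, 3150 ± 461 and 3018 ± 429 CPM and overlapped each other. Synovial lining-like cells had 614 ± 188 CPM and chondrocyte-like cells 401 ± 259 CPM. Ogn, also known as mimecan, was highest in cluster 4 (1512 ± 502 CPM), cluster 2 (1354 ± 233 CPM) and tenocyte-like cells (1296 ± 298 CPM), and these 3 did not differ beyond their spread. Ogn was 83.8 ± 50.7 CPM in synovial lining-like and 112 ± 82.1 CPM in chondrocyte-like cells. Pericyte or smooth muscle-like cells kept Aspn (749 ± 212 CPM) but had Ogn at 33.8 ± 44.9 CPM.

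Omd, a keratan sulfate proteoglycan of mineralized tissue, and Epyc, a dermatan sulfate proteoglycan of growth cartilage, were concentrated in chondrocyte-like cells. Omd reached 270, 463 and 472 CPM in the wild-type libraries and 144 and 302 CPM in Nlrp3-/- replicates 1 and 2, and the next of the 11 groups, cluster 4, had 10.4 ± 4.59 CPM. Osteoblast lineage-like cells, with at least 20 cells in only 2 libraries, were not among the 11 groups, and their Omd level was 485 CPM in Nlrp3-/- replicate 1, above its chondrocyte-like level of 144 CPM, and 117 CPM in Nlrp3-/- replicate 2. Epyc in chondrocyte-like cells was 12.8, 35.1 and 73.4 CPM in the wild-type libraries and 66.2 and 84.5 CPM in Nlrp3-/- replicates 1 and 2. Every other group of the 11 had a mean Epyc level of at most 1.16 CPM. Nlrp3-/- replicate 3 had 6 chondrocyte-like cells and is not among these values.

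**Figure D2:**
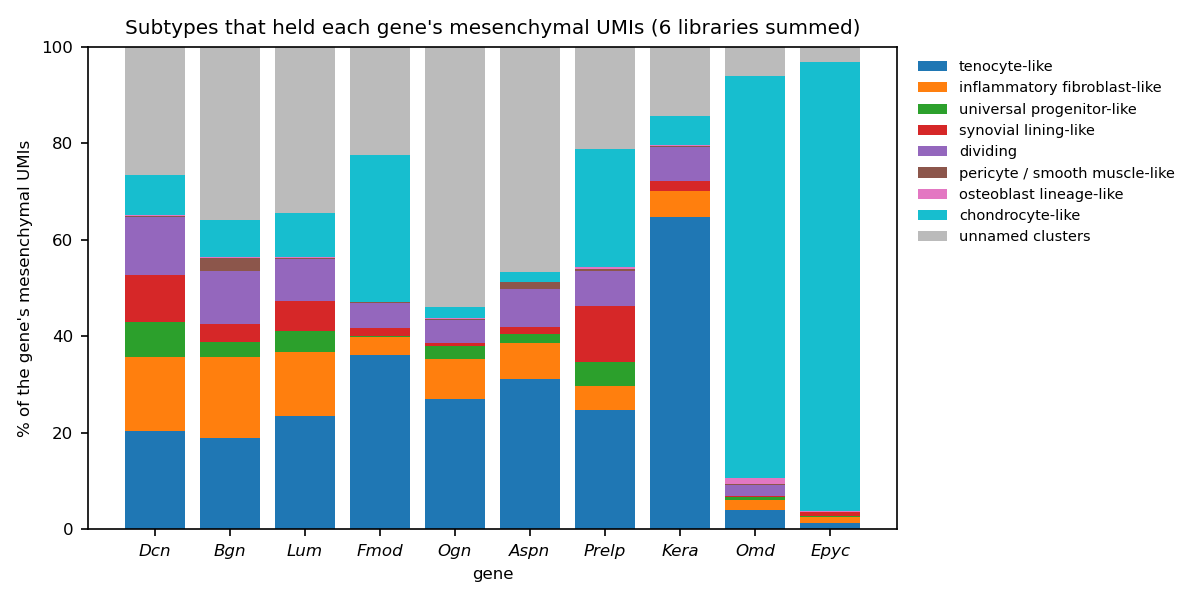
Percentage of each SLRP gene's mesenchymal UMIs (vertical axis) that came from each named subtype and from the unnamed clusters, with the 6 libraries summed. Chondrocyte-like cells, 550 of 755 from Nlrp3-/- replicate 2, held 93.1% of Epyc and 83.6% of Omd UMIs, and tenocyte-like cells 64.7% of Kera UMIs.

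The subtypes differed in how much of each gene's RNA they held. Chondrocyte-like cells, 755 of the 12782, held 83.6% of the Omd, 93.1% of the Epyc, 30.3% of the Fmod and 24.7% of the Prelp UMIs, but 1.96% of the Aspn UMIs. Since 550 of the 755 came from Nlrp3-/- replicate 2, these shares rest largely on that library, and without it they were 58.2% for Omd, 65.1% for Epyc, 10.7% for Fmod, 8.84% for Prelp and 0.480% for Aspn. By library they ran from 13.7% to 96.7% for Omd, 0% to 99.1% for Epyc, 1.52% to 57.7% for Fmod and 1.05% to 46.6% for Prelp. Tenocyte-like cells, 1936 in number, held 64.7% of the Kera, 36.0% of the Fmod and 31.2% of the Aspn UMIs. By library these shares ran from 16.4% to 76.1% for Kera, 7.49% to 51.1% for Fmod and 4.97% to 51.6% for Aspn. The unnamed clusters held 54.0% of the Ogn UMIs, from 23.1% to 91.1% by library, and 46.7% of the Aspn UMIs, from 24.0% to 84.8%. Pericyte or smooth muscle-like cells held 0.246% of the Dcn and 0.236% of the Lum UMIs.

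Mixtures of the members also differed. In tenocyte-like cells Aspn made up 29.7% ± 4.37 and Bgn 26.9% ± 2.27 (SD, n = 6) of the summed SLRP UMIs. In synovial lining-like cells Dcn made up 41.0% ± 5.43 and Aspn 7.80% ± 2.58. Pericyte or smooth muscle-like cells had 66.0% ± 10.3 from Bgn and 24.8% ± 5.81 from Aspn, and their sum was only 0.300% ± 0.0379 of all UMIs, against 1.63% ± 0.275 in tenocyte-like cells.

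Across 19 mesenchymal clusters, Pearson's r of mean log2(CPM + 1) described which patterns ran together; the clusters share libraries and cells, so r is a description. Among member pairs, Omd and Epyc (r = 0.93), Bgn and Ogn (0.88), Dcn and Lum (0.84) and Dcn and Prelp (0.84) were most alike. The 3 genes of 8797 most like each member were Cdon, Cgnl1 and Lum for Dcn (0.89, 0.89 and 0.84) and Fgfr1, Lpar1 and Cdon for Lum (0.89, 0.89 and 0.86). They were Setd7, Socs1 and Cpxm2 for Bgn (0.93, 0.91 and 0.88) and Fndc1, Sulf2 and Mfap4 for Ogn (0.97, 0.94 and 0.93). Aspn ran with Postn, Rufy1 and Ctsk (0.93, 0.92 and 0.92) and Fmod with Trps1, Nedd9 and Ecrg4 (0.89, 0.89 and 0.88). Kera was most like the tendon gene Thbs4, Tac1 and Trpm6 (0.86, 0.84 and 0.84), and Prelp most like Dcn, Nkiras1 and Csgalnact2 (0.84, 0.83 and 0.82). The cartilage genes Mia and Matn3 and the collagen gene Col27a1 were most like Omd (0.95, 0.94 and 0.95), and Rab11fip4, Mia and Lbhd2 most like Epyc (0.97 each). Thbs4 and Matn3 were also among the markers that named the tenocyte-like and chondrocyte-like clusters.

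Between genotypes, no member passed the test in the summed mesenchymal-like cells. By edgeR's quasi-likelihood test with Benjamini-Hochberg adjustment, 0 of 10 members were called and 0 had an unadjusted p under 0.05, beside 22 of 15012 genes called (0.147%) and 1939 with an unadjusted p under 0.05 (12.9%). DESeq2 also called 0 members, beside 293 of 15012 genes (1.95%). The 10 members' log2 fold changes (Nlrp3-/- over wild type) had a median of 0.69 and were above 0 for 9 of them, beside a median of 0.04 over all genes tested, of which 54.6% were above 0. Without Nlrp3-/- replicate 2 the median was -0.061 and 4 of the 10 were above 0, without wild-type replicate 3 the median was 1.24, and without any one of the other libraries it was 0.44 to 1.04. No member had wild-type and Nlrp3-/- libraries that did not overlap, whereas 20.3% of all genes tested did.

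Values by library show where the spread lay. Bgn was 3071, 3260 and 3341 CPM in the wild-type libraries and 2959, 3511 and 3613 CPM in the Nlrp3-/- libraries. Its groups overlapped almost fully, and the log2 fold change was -0.00 ± 0.15 (SE, edgeR adjusted p = 0.997). Dcn was 1595, 1854 and 2321 CPM against 1136, 2757 and 2363 CPM, so that Nlrp3-/- held both the lowest and the highest value (log2 fold change 0.06 ± 0.35, edgeR adjusted p = 0.940).

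Lum was 702, 579 and 1605 CPM in wild type and 1165, 2140 and 1659 CPM in Nlrp3-/-, with wild-type replicates 1 and 2 the lowest of the 6 (log2 fold change 0.72 ± 0.43, edgeR adjusted p = 0.457). Aspn was 1155, 1087 and 2879 CPM against 2985, 1862 and 2848 CPM, again with wild-type replicates 1 and 2 lowest and replicate 3 level with the Nlrp3-/- libraries (0.51 ± 0.41, edgeR adjusted p = 0.555). Ogn was 342, 350 and 812 CPM against 1155, 384 and 843 CPM (0.58 ± 0.48, edgeR adjusted p = 0.564). Among single mesenchymal groups, 9 had at least 20 cells in every library, leaving out cluster 7, which was led by neutrophil genes. In 8 of these 9, wild-type replicates 1 and 2 were also the 2 lowest for Lum, and in 8 for Aspn. Nlrp3-/- replicate 1 was the lowest library for Dcn in 8 and for Bgn in 7 of the 9 groups. The makeup of the summed cells also differed between libraries. Inflammatory fibroblast-like cells were 22.3% and 33.0% of the mesenchymal-like cells of wild-type replicates 1 and 2 against 2.76% to 11.0% in the other libraries. Tenocyte-like cells were 7.31% and 7.81% there, 27.9% in wild-type replicate 3 and 2.80%, 27.0% and 18.6% in Nlrp3-/-. Dividing cells were 11.3% to 16.4% in wild type and 4.39% to 8.23% in Nlrp3-/-, without overlap. The part of makeup in the summed values was not tested.

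Fmod was 213, 96.2 and 600 CPM in wild type and 309, 1114 and 451 CPM in Nlrp3-/- (0.99 ± 0.74 on the log2 scale, adjusted p = 0.533 by edgeR). Prelp was 51.5, 56.9 and 101 CPM against 59.0, 239 and 82.2 CPM (0.82 ± 0.56, adjusted p = 0.504 by edgeR). Kera was 5.90, 14.8 and 45.9 CPM against 7.35, 65.0 and 35.3 CPM (0.65 ± 0.90, edgeR adjusted p = 0.729). In all 3 genes, Nlrp3-/- replicate 2 was the highest library. Omd was 25.3, 6.32 and 31.6 CPM against 10.7, 125 and 6.10 CPM (1.14 ± 1.15, adjusted p = 0.632 by edgeR), and Epyc 1.25, 0.296 and 3.92 CPM against 2.68, 34.2 and 0.989 CPM (2.77 ± 1.43, edgeR adjusted p = 0.420).

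**Figure D3:**
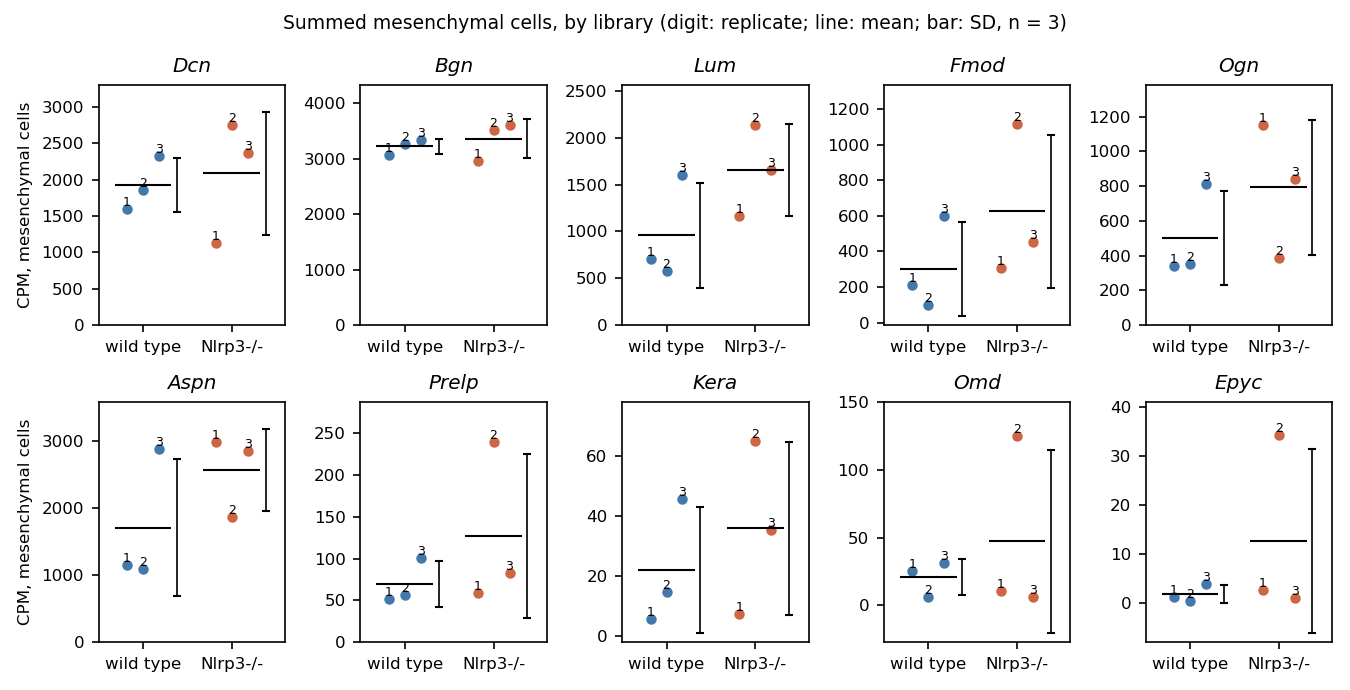
CPM of each SLRP gene in the summed mesenchymal-like cells of each library (points, with the replicate number), by genotype; the horizontal line is the mean and the bar its SD (n = 3). The genotypes overlap for every gene, and Nlrp3-/- replicate 2 is the highest library for Dcn, Lum, Fmod, Prelp, Kera, Omd and Epyc.

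Nlrp3-/- replicate 2 held 550 of the 755 chondrocyte-like cells, 27.7% of its mesenchymal-like cells against 0.185% to 4.87% in the other libraries. These cells carried 99.1% of its Epyc, 96.7% of its Omd and 57.7% of its Fmod UMIs. The barcodes set aside held a cluster of 293, 289 of them from Nlrp3-/- replicate 1. It was led by Ibsp, Snorc, Cytl1, Chad and Col2a1 and is not counted in these shares. Without the chondrocyte-like clusters the log2 fold change of Omd moved from 1.14 to -0.09 ± 0.28 and that of Epyc from 2.77 to 1.46 ± 0.46, where Epyc was at most 0.990 CPM in any library, while Fmod (0.90 ± 0.70) and Prelp (0.80 ± 0.54) stayed near their values. Without Nlrp3-/- replicate 2 the estimates for Epyc (-0.12), Kera (-0.12), Prelp (-0.07), Omd (-1.43) and Dcn (-0.22) were below 0. Without wild-type replicate 3, Aspn passed the test (1.12 ± 0.21, edgeR adjusted p = 0.0457), beside 1041 of 15528 genes called (6.70%). No other library, when left out, gave a called member.

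**Figure D4:**
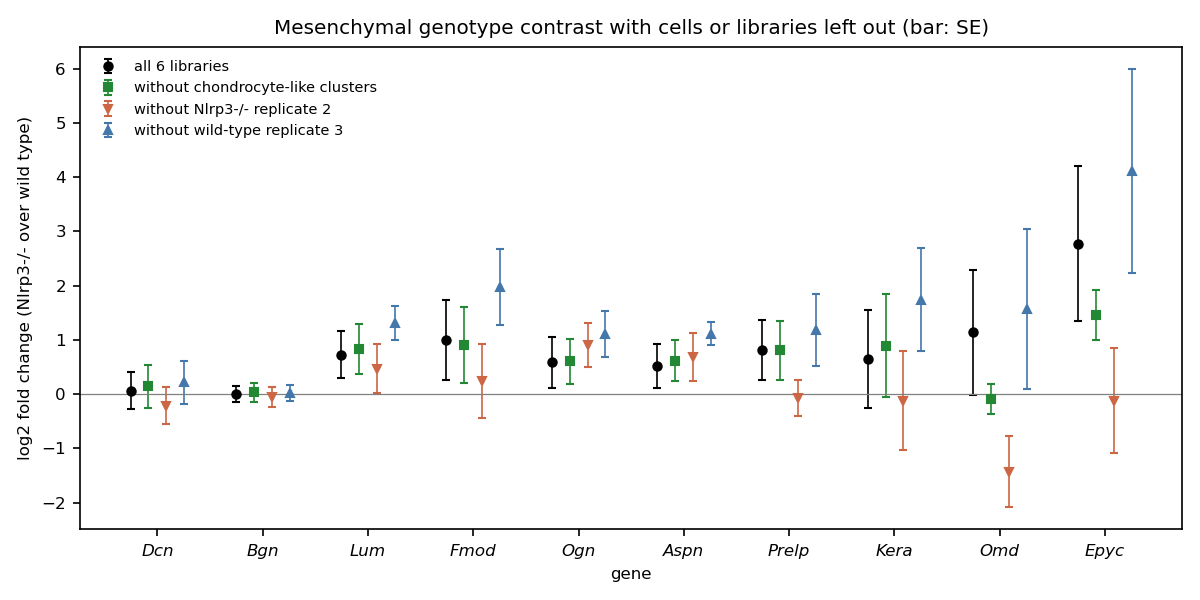
Log2 fold change (Nlrp3-/- over wild type, vertical axis) of each SLRP gene in the summed mesenchymal-like cells, with all 6 libraries and with the chondrocyte-like clusters, Nlrp3-/- replicate 2 or wild-type replicate 3 left out; bars are the SE of the edgeR fit. Omd moves from 1.14 to -0.09 without the chondrocyte-like clusters, and Aspn from 0.51 to 1.12 without wild-type replicate 3.

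Within subtypes, 49 contrasts of a member could be fitted in 6 subtypes, and 0 of them were called by edgeR (6 had an unadjusted p under 0.05). These 6 were 12.2% of the 49, beside 10.2% to 16.9% of all genes at an unadjusted p under 0.05 in the same subtypes. The share of all genes called was 0.109% in inflammatory fibroblast-like, 0.113% in dividing, 0.141% in universal fibroblast progenitor-like, 0.25% in pericyte or smooth muscle-like, 0.275% in synovial lining-like and 0.369% in tenocyte-like cells. Genotypes did not overlap for 2 members in universal fibroblast progenitor-like cells (16.7% of genes there) and 1 in pericyte or smooth muscle-like cells (20%). It was 0 in inflammatory fibroblast-like (16.4%), tenocyte-like (19.5%), dividing (20.5%) and synovial lining-like cells (22.5%). Here and below, shares of genes without overlap in a subtype or cluster are over genes above a floor of 60 UMIs summed over the libraries. Fmod and Aspn had log2 fold changes above 0 in 6 of 6 subtypes, from 0.09 to 1.08 and from 0.06 to 0.48. The subtypes share the same libraries, so like signs across them are not independent. The fitted estimate of Ogn was below 0 in 6 of 6, from -1.29 to -0.02, although its mean CPM in inflammatory fibroblast-like cells was 352 in wild type and 369 in Nlrp3-/- and although its estimate over all mesenchymal-like cells was 0.58. Pericyte or smooth muscle-like cells came from clusters 5 and 20, and 720 of the 799 cells were of cluster 5. Over both clusters mean Ogn was 42.5 CPM in wild type and 25.1 CPM in Nlrp3-/-, but in cluster 5 it was 4.63 and 9.53 CPM. In the unnamed clusters summed, Ogn was 639 ± 207 CPM in wild type and 1081 ± 453 CPM in Nlrp3-/-, which overlapped. It was 1209 ± 98.0 CPM in wild type and 1816 ± 586 CPM in Nlrp3-/- in cluster 4, where the genotypes did not overlap (0.51 ± 0.22 on the log2 scale, adjusted p = 0.517 by edgeR). In cluster 2 it was 1255 ± 86.6 against 1454 ± 314 CPM and in cluster 1 it was 415 ± 193 against 451 ± 39.3 CPM (SD, n = 3), with overlap in both. Over the unnamed clusters with at least 20 cells in every library, genotypes did not overlap for 3 members in cluster 4 (Ogn, Aspn and Omd, beside 15.5% of genes there). In cluster 2 they did not overlap for 5 members (Lum, Aspn, Prelp, Omd and Epyc). Of these, 4 were over the floor, beside 16.9% of genes, while Epyc had at most 11 UMIs in a library. The number was 1 in cluster 7 (Aspn, beside 19.4%) and 0 in cluster 1 (22.3%). In cluster 4 Aspn was 2939 ± 596 against 4306 ± 549 CPM and Omd 13.2 ± 5.16 against 7.50 ± 1.21 CPM, and in cluster 2 Lum was 1045 ± 394 against 1771 ± 154 CPM. Cluster 4 held only 34 cells in wild-type replicate 1 and 49 in Nlrp3-/- replicate 2. Its Omd values in these libraries therefore rest on few UMIs, and little weight can be put on their separation. Omd and Epyc in cluster 2 were under the count filter of the edgeR fit, and of the other non-overlapping members 0 were called, the lowest edgeR adjusted p being 0.307 (Lum in cluster 2). The unnamed clusters 2 and 4, which had the highest Ogn levels, made up 22.5% and 18.3% of the mesenchymal-like cells of Nlrp3-/- replicate 1 and 17% and 12.8% of those of replicate 3, against at most 5.50% and 8.05% in the other libraries. Inflammatory fibroblast-like cells came from clusters 3 and 6, with 213, 783 and 91 cells of cluster 3 and 71, 71 and 82 of cluster 6 in wild type, and 40, 1 and 29 of cluster 3 and 18, 91 and 327 of cluster 6 in Nlrp3-/-, so the contrast in that subtype compares partly different clusters. Tenocyte-like cells came from clusters 0 and 14, with 11, 27 and 415 cells of cluster 0 and 82, 175 and 28 of cluster 14 in wild type, and 52, 521 and 590 of cluster 0 and 7, 14 and 14 of cluster 14 in Nlrp3-/-. In wild-type replicates 1 and 2 they were thus mostly cluster 14 and in the other 4 libraries mostly cluster 0.

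Ogn in synovial lining-like cells had the lowest adjusted p of the 49. It was 146, 69.0 and 137 CPM in wild type and 28.3, 31.0 and 91.9 CPM in Nlrp3-/-, groups that overlapped, with a log2 fold change of -1.29 ± 0.41 and an edgeR adjusted p of 0.177. With 1 library left out it ran from -2.05 without Nlrp3-/- replicate 3 to -0.97 without Nlrp3-/- replicate 2. DESeq2 gave -1.33 (adjusted p = 0.0411), past the threshold. The edgeR fit with no filter on low counts also put it past the threshold (-1.28, adjusted p = 3.45e-07), beside 572 of 17110 genes called in that fit (3.34%) and 128 of 9102 genes called by DESeq2 (1.41%). With no filter the members called were, besides Ogn here and Dcn in pericyte or smooth muscle-like cells, Fmod in synovial lining-like cells (adjusted p = 0.00174 by edgeR), Prelp in tenocyte-like cells (0.0127, beside 2.51% of genes called there) and Epyc in inflammatory fibroblast-like cells (0.0246, beside 1.44%), where it had at most 15 UMIs in a library.

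Bgn in universal fibroblast progenitor-like cells was 4020, 4359 and 3233 CPM in wild type and 2396, 2526 and 2746 CPM in Nlrp3-/-, with no overlap between genotypes (log2 fold change -0.76 ± 0.23, edgeR adjusted p = 0.299). Aspn in the same cells was 1311, 1274 and 1090 CPM against 1594, 1784 and 1368 CPM, also without overlap (0.20 ± 0.22, edgeR adjusted p = 0.762). Such separation was seen for 16.7% of the genes of that subtype, and these cells numbered 21 to 220 per library. Bgn is X-linked, and as for every gene here, genotype and sex cannot be told apart and the part of sex was not tested.

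Dcn in pericyte or smooth muscle-like cells was 114, 88.5 and 311 CPM in wild type and 139, 64.0 and 75.2 CPM in Nlrp3-/-, with a log2 fold change of -0.97 ± 0.43 and an edgeR adjusted p of 0.380 (2.55e-04 with no filter on low counts, where 338 of 17782 genes, 1.9%, were called). In cluster 5 alone, Dcn was 116 ± 24.0 CPM in wild type and 72.2 ± 35.1 CPM in Nlrp3-/- (SD, n = 3), with overlap. Cluster 20, the rest of this subtype, had 6 cells in wild-type replicate 3, and their part in its 311 CPM was not tested. Prelp in all pericyte or smooth muscle-like cells was 0.690, 7.67 and 6.21 CPM against 10.8, 19.3 and 8.43 CPM, without overlap (1.27 ± 0.56, edgeR adjusted p = 0.376), where 20% of genes did not overlap. These values rest on 1, 13 and 6 UMIs in wild type and 13, 29 and 13 UMIs in Nlrp3-/-, and with 1 library left out the estimate ran from 0.75 without wild-type replicate 1 to 1.95 without wild-type replicate 2. Without wild-type replicate 3, 7 of the subtype contrasts passed the threshold: Lum (1.18), Fmod (1.24) and Prelp (2.04) in tenocyte-like cells, Lum (2.33) and Aspn (0.61) in pericyte or smooth muscle-like cells, and Aspn in synovial lining-like (0.76) and dividing cells (0.87). The share of all genes called in these fits was 14.7% in tenocyte-like, 8.19% in pericyte or smooth muscle-like, 5.57% in synovial lining-like and 9.31% in dividing cells. In tenocyte-like cells this fit set mostly cluster 14 in wild type against mostly cluster 0 in Nlrp3-/-. The remaining pairs with an unadjusted p under 0.05 were Omd in tenocyte-like cells (-0.93 ± 0.38) and Prelp in universal fibroblast progenitor-like cells (-0.72 ± 0.31). The direction of Omd in tenocyte-like cells turned with a minimum of 1000 UMIs (0.23) and at clustering resolution 2 (0.056), and this contrast has the split between clusters 0 and 14 given above. With 1 library left out these estimates ran from -1.39 to -0.68 and from -1.05 to -0.48. The levels of these pairs were at most 19.4 CPM and 223 CPM.

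**Figure D5:**
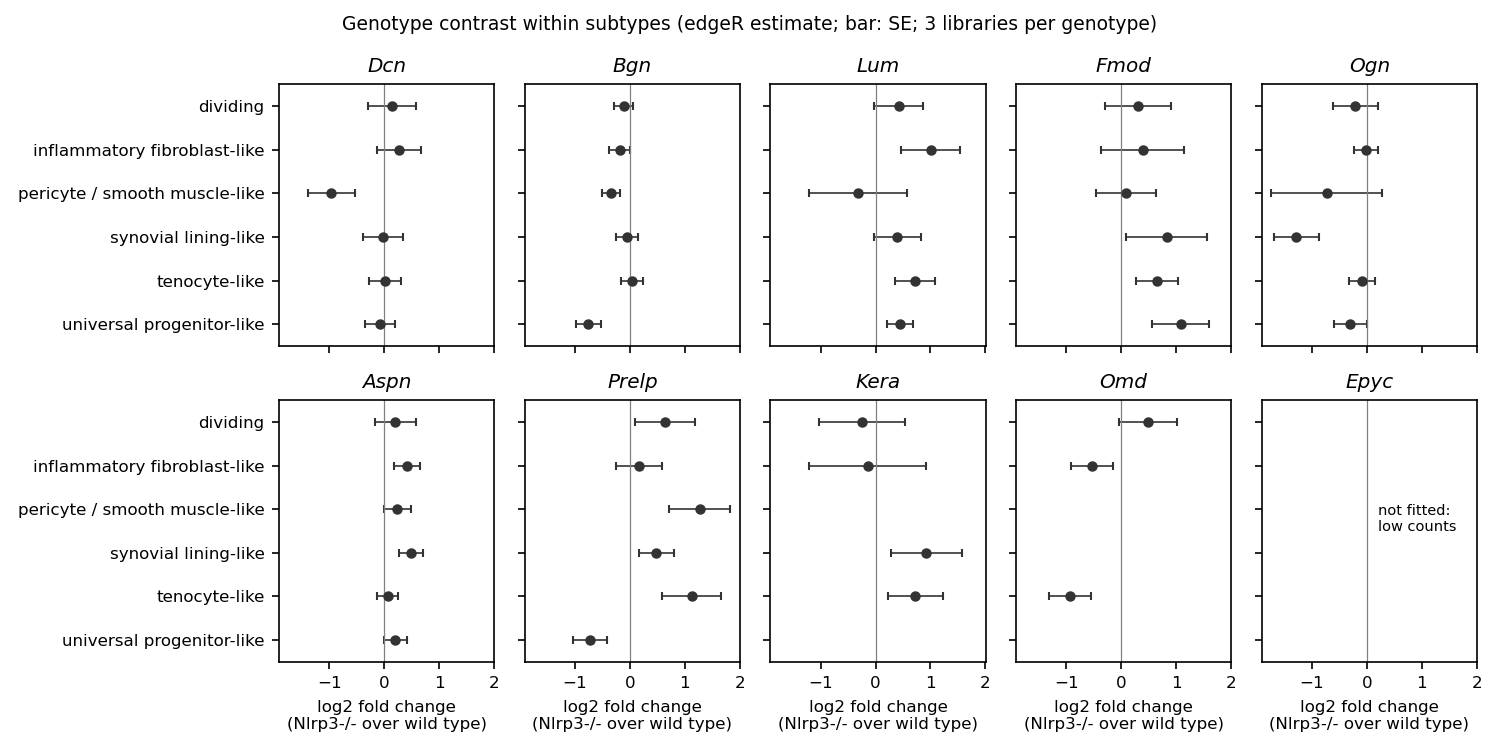
Log2 fold change (Nlrp3-/- over wild type, horizontal axis) of each SLRP gene within the 6 tested subtypes (rows), with the SE of the edgeR fit (3 libraries per genotype); gene and subtype pairs under the count filter have no point. The fitted estimates of Aspn and Fmod lie above 0 and those of Ogn below 0 in all 6 subtypes, with Ogn at -0.02 in inflammatory fibroblast-like cells, and 0 of the 49 contrasts passed the threshold. In cluster 5, which holds most pericyte or smooth muscle-like cells, mean Ogn was higher in Nlrp3-/-.

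Outside mesenchymal-like cells, Lum in endothelial-like cells was the single member called by edgeR. It was 4.43, 6.88 and 7.77 CPM in wild type and 22.5, 20.8 and 23.5 CPM in Nlrp3-/-, with no overlap, a log2 fold change of 1.69 ± 0.22 and an edgeR adjusted p of 0.00811, beside 46 of 11492 genes called (0.4%). Apart from the 4.43 CPM of wild-type replicate 1, these levels lay in the range of Lum in neutrophil-like cells, 6.37, 11.2 and 15.1 CPM in wild type and 10.8, 27.5 and 27.3 CPM in Nlrp3-/-. In 9 of 9 other non-mesenchymal cell types with at least 20 cells in every library the mean Lum level was higher in Nlrp3-/-, and this held for Aspn, Bgn, Dcn, Fmod, Ogn and Prelp as well. Endothelial Bgn was 188 ± 21.2 CPM in wild type and 265 ± 33.6 CPM in Nlrp3-/- (SD, n = 3), without overlap but not called. Endothelial Fmod, 1.28 ± 0.660 against 6.97 ± 4.95 CPM, did not overlap either. The share of all endothelial genes without overlap was not taken. Without Nlrp3-/- replicate 1 or 3, endothelial Lum missed the threshold (1.66 and 1.64, edgeR adjusted p = 0.0535 and 0.0848), while DESeq2 also called endothelial Fmod (2.19, adjusted p = 0.0240), beside 351 of 11492 genes (3.05%). With no filter on low counts edgeR called Lum, Fmod, Ogn and Aspn in endothelial-like cells, beside 947 of 19155 genes (4.94%). The part of free RNA in the endothelial values was not tested.

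Genes that build, bind or cut SLRPs were described from 8 lists holding 103 genes, and 0 of their tested members passed the test in mesenchymal-like cells with edgeR. The median log2 fold change was 0.27 for 14 fibrillar and fibril-associated collagens, of which 13 were above 0, and 0.32 for 14 large and other matrix proteoglycans, of which 9 were above 0. It was 0.19 for 22 genes of chondroitin and dermatan sulfate synthesis, 0.07 for 8 genes of keratan sulfate synthesis, 0.26 for 10 TGF-β ligands and receptors and 0.22 for 10 receptors of soluble SLRPs. For 15 proteases of SLRPs it was 0.03 and for 7 further SLRP genes -0.01, beside 0.04 over all genes. DESeq2 called 2 list genes, the glypicans Gpc3 (log2 fold change 0.75, adjusted p = 0.0168) and Gpc6 (0.65, adjusted p = 0.00241), which were 2 of 99 list genes beside 1.95% of all genes. The edgeR fit without wild-type replicate 3 called 9 of 101 list genes (8.91%), beside 6.70% of all genes.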

How the data were processed

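Single cells of injured and repaired enthesis were measured in 3 wild-type and 3 Nlrp3-/- libraries, grouped by their titles. The authors deposited, per library, a matrix of raw UMI counts per gene and barcode. The submitters' processing notes name Cell Ranger 2.1.1 and mm10, while the file headers name Cell Ranger 4. Barcodes with at least 500 UMIs and 200 genes that differed from free RNA (false discovery rate 0.01) and had at most 10% mitochondrial UMIs were kept. Scrublet's automatic threshold marked 2381 of 92075 cells, only 36 of them in Nlrp3-/- replicate 1, so the highest-scoring 0.8% per 1000 cells of each library were removed instead (12391 cells). Cells were clustered with scanpy 1.11.5 and leidenalg 0.10.2 (2000 variable genes, 30 components, 15 neighbours, resolution 1), leaving the 10 SLRP genes out of the clustering and of the naming markers. Clusters with over 95% of cells from 1 library, or over 75% where shallow, were set aside.

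Counts were summed per library and cell group and tested with edgeR 4.0.16 (R 4.3.3, quasi-likelihood, TMM, filterByExpr) over all genes, with Benjamini-Hochberg adjustment and a threshold of 0.05. Groups with at least 20 cells in all 6 libraries were tested. DESeq2 1.42.0, RLE size factors, no filter, a replicate block, each library left out, doublets kept, a minimum of 1000 UMIs, resolution 2 and other clusterings were the alternatives. Endothelial alternatives, the removal of immune-led or chondrocyte-like clusters, and UMI shares without Nlrp3-/- replicate 2 were added after seeing the data. The contrasts of non-mesenchymal cell types, endothelial-like cells included, and of single clusters were also not planned. On simulated counts of the mesenchymal comparison (15012 genes), 97% of genes changed by 2 and 96% of genes changed by 3 on the log2 scale were called, with 16 false calls. Smaller changes, the size of most member estimates, were not simulated. The genes named for likeness were the 3 with the highest r to each member. The 10 members, the gene lists and the markers were chosen with earlier results of these data known, and the thresholds for naming clusters were set after the clusters were seen. Of 32285 gene IDs, 32235 matched the GENCODE annotation. Depth was 97042713 to 134901999 UMIs per library, and intervals over libraries do not cover differences between animals within a pool.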

Additional observations from a re-analysis of the deposited data

Results flagged for a closer look

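Mesenchymal-like barcodes of Nlrp3-/- replicate 1 that were kept out of the comparisons, 6001 in number, carried every SLRP gene above the level in the neutrophil-like cells of the same library. Bgn was at 1715 CPM in them against 24.6 CPM, Aspn at 1861 against 22.9 CPM, Ogn at 794 against 9.33 CPM, Lum at 693 against 10.8 CPM and Dcn at 666 against 7.10 CPM. Fmod was at 178 against 2.23 CPM and Prelp at 29.1 CPM against 1 CPM. Of the rare members, Omd was at 6.70 against 0.203 CPM, while Kera at 6.35 CPM and Epyc at 1.13 CPM stood against 0 CPM. These barcodes had a median of 1337 UMIs, and their neutrophil markers summed to 18535 CPM against 1277 CPM in the retained mesenchymal-like cells. Free RNA of that library held Bgn at 805, Aspn at 587, Lum at 348, Dcn at 279, Ogn at 244, Fmod at 85.0, Prelp at 15.2, Omd at 5.45, Kera at 1.59 and Epyc at 0.682 CPM, and the part of free RNA and of neutrophils in these barcodes was not tested. The retained mesenchymal-like cells of that library had more Dcn (1136 CPM), Bgn (2959 CPM) and Aspn (2985 CPM).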

How the results depend on the processing

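The number of genes called between genotypes in mesenchymal-like cells was 22, and became 293 with DESeq2 and 5 with the replicate block, and ran from 8 to 1041 when 1 library was left out, the highest being without wild-type replicate 3. Members called ran from 0 to 1 in all mesenchymal-like cells and from 0 to 7 in the subtypes when 1 library was left out. In the subtypes it was 5 with no filter on low counts and 1 with DESeq2, beside 1.44% to 3.34% and 1.41% of all genes called in those subtypes. List genes called were 2 with DESeq2 and ran from 0 to 9 when 1 library was left out. Same-numbered libraries had correlations of deviations of -0.04, -0.52 and -0.13, against -0.37 to 0.46 between other numbers. Whether same-numbered libraries were handled together cannot be read from these values. The block also gave estimates of -0.028 for Dcn and -0.36 for Omd.

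Direction turned for Dcn without wild-type replicate 1 (-0.06), Nlrp3-/- replicate 2 (-0.22) and Nlrp3-/- replicate 3 (-0.03), and without Nlrp3-/- replicate 2 for Prelp (-0.067), Kera (-0.12), Omd (-1.43) and Epyc (-0.12). With 1 library left out, the mesenchymal estimates ran from -0.22 to 0.37 for Dcn, -0.054 to 0.10 for Bgn, 0.46 to 1.31 for Lum, 0.24 to 1.97 for Fmod, 0.24 to 1.11 for Ogn, 0.27 to 1.12 for Aspn, -0.067 to 1.18 for Prelp, -0.12 to 1.74 for Kera, -1.43 to 1.67 for Omd and -0.12 to 4.11 for Epyc, and that of Dcn in pericyte or smooth muscle-like cells from -1.40 to -0.28. The estimate of Bgn, near 0, turned positive with no filter (0.0099), without wild-type replicates 2 (0.01) or 3 (0.02), without Nlrp3-/- replicate 1 (0.10), with doublets kept (9.2e-05), without immune-led clusters (0.0024) and without chondrocyte-like clusters (0.029). Omd turned without chondrocyte-like clusters (-0.094), and in tenocyte-like cells with a minimum of 1000 UMIs (0.23) and at resolution 2 (0.056). Endothelial Lum missed the threshold without Nlrp3-/- replicate 1 (1.66, edgeR adjusted p = 0.0535) or replicate 3 (1.64, edgeR adjusted p = 0.0848). The cause of these changes was not tested. Levels of a few CPM may hold free RNA, whose part was not tested, and the contrasts rest on 3 libraries per genotype.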

Other observations

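Mast cell and basophil-like cells, 69 to 180 per library, had unlike SLRP levels between libraries. Aspn was 3.53, 80.7 and 33.1 CPM in wild type and 609, 19.6 and 24.0 CPM in Nlrp3-/-. Bgn was 9.72, 199 and 51.8 CPM against 517, 55.6 and 37.9 CPM, so Nlrp3-/- replicate 1 held the highest value of both genes.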
